A study of Atriplex lentiformis with 8 samples.

Results

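Transcripts matching genes of the mitochondrial genome were compared between leaves of Atriplex lentiformis (quailbush, a salt-tolerant C4 shrub) grown at 23 °C and at 43 °C. Of 46492 assembled transcripts, 30203 had a best protein match in Arabidopsis, and 160 of these matched 33 mitochondrion-encoded loci, whose identifiers start with ATMG. A transcript belongs here through its match alone, and the genome of Atriplex in which it is encoded was not tested. RNA came from 8 leaf libraries, 4 per temperature, with 8 weeks given as the duration. Cool-grown plants had 23 °C days and 18 °C nights, and warm-grown plants had 43 °C days and 30 °C nights, with a photoperiod of 16 h and a light intensity of 120 micro-Einstein in both. No genotype is named for either group, and the labels assign a 16:3 lipid phenotype to the cool group and an 18:3 phenotype to the warm group. Each regime had its own growth chamber, so temperature and chamber cannot be told apart.

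The deposited values are means of FPKM (fragment counts scaled by transcript length and library depth) for each temperature, with the authors' log2 change and adjusted p. Single-library values were not analysed here, so the means below have no SD and the depth behind them is unknown. The words rose and fell are kept for transcripts with an adjusted p under 0.05 from the authors. Folds are ratios of the authors' mean FPKM at 43 °C to that at 23 °C. In bulk leaf RNA, fewer cells of a type and less RNA per cell cannot be told apart.

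Plant mitochondria keep a small genome that encodes core membrane and catalytic subunits of the respiratory chain, part of the mitochondrial ribosome and factors for cytochrome c assembly, while the nucleus encodes most of their proteins. Their RNAs are spliced, edited and trimmed after transcription, and in plant mitochondria a poly(A) tail marks RNA for decay. Selection of these libraries for poly(A) tails was not given in the sources used here. Besides its genes, the Arabidopsis mitochondrial genome holds many open reading frames (ORFs) of unknown function and fragments of retroelements related to those of the nucleus.

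Transcripts of named mitochondrial proteins were scarce at 23 °C and far higher at 43 °C. Of the 36 transcripts matching 19 named loci, 35 rose, none fell and 1 did not pass. Across all transcripts, the authors' deposited table called 38.5% changed, 20.7% higher and 17.8% lower at 43 °C. The median log2 change of the 36 in the authors' deposited table was 5.97, with a range of 0.73 to 9.21, against a median of 0.10 over all transcripts. A passing log2 change of at least 4, or 16-fold, in the authors' deposited table was reached by 30 of the 36 and by 3.71% of all transcripts.

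The levels themselves moved from the bottom of the transcript list to its upper part. At 23 °C, 2 of the 36 transcripts exceeded 1 FPKM, and at 43 °C 33 did. Ranked by FPKM among all transcripts, their median percentile was 8.46 at 23 °C and 73.8 at 43 °C. Weighted by transcript length, they made up 0.00379% of the summed FPKM at 23 °C and 0.180% at 43 °C. Even so, 25 of the 36 stayed under 10 FPKM at 43 °C.

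**Figure D1:**
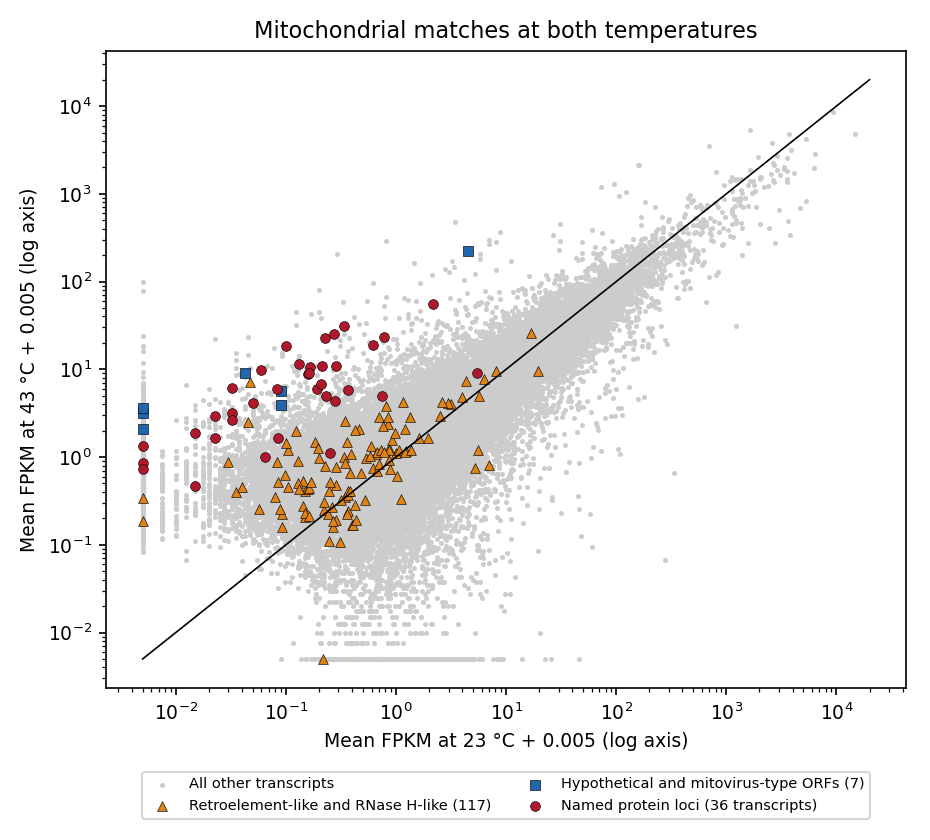
Mean FPKM at 23 °C (horizontal) against mean FPKM at 43 °C (vertical), both on log axes after adding 0.005, for each transcript matching a mitochondrial locus and, in grey, all other transcripts. Transcripts of the 19 named protein loci lie above the line of equality, closest to it for RPL2, at 5.48 and 9.16 FPKM, whereas retroelement-like matches scatter on both sides of it.

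Complex I, the NADH dehydrogenase that feeds electrons into the chain, was represented by 4 of its 14 listed mitochondrial genes, with 13 transcripts. Of these, 12 rose and 1 did not pass, and their summed FPKM was 43.1-fold higher at 43 °C. NAD4, a proton-pumping subunit of the membrane arm, rose from 0.223 to 22.6 FPKM in its most abundant transcript, a 102-fold difference. The other NAD4 transcript rose less, from 0.245 to 1.12 FPKM, or 4.56-fold. NAD5B, which carries part of the split gene for another membrane-arm subunit, rose from 0.613 to 18.9 FPKM, and its other transcripts rose from 0.28 to 10.9 and from 0.08 to 1.63 FPKM. NAD6, also of the membrane arm, rose from 0.275 to 4.36 FPKM, or 15.9-fold (log2 3.84 and adjusted p 2.94e-06 in the authors' deposited table).

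NAD7, a subunit of the peripheral arm, had 7 assembled transcripts, whose sum went from 0.423 to 32.5 FPKM. All 7 came from a single assembled component, so they are variants that can share reads and not 7 separate observations. Its most abundant variant rose from 0.128 to 11.4 FPKM (log2 6.51 and adjusted p 8.31e-196 in the authors' deposited table). The next rose from 0.208 to 11.0 FPKM and another from 0.0275 to 6.14 FPKM, the latter 223-fold and the largest ratio among the 33 named-protein transcripts not listed at 0. Another 3 variants were listed at 0 at 23 °C and rose to 1.34, 0.84 and 0.723 FPKM. The transcript that did not pass was the remaining variant, at 0.06 FPKM at 23 °C and 1.0025 FPKM at 43 °C, with an adjusted p of 0.0514 in the authors' deposited table.

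Complexes III and IV, which pass electrons on to cytochrome c and to oxygen, showed the same direction in every matched transcript. COB, the apocytochrome b of complex III, rose from 0.0275 to 3.20 FPKM in the more abundant of its 2 transcripts, and from 0.0175 to 2.90 FPKM in the other. COX2, the subunit of cytochrome c oxidase that receives electrons from cytochrome c, had the highest level of any named protein at 43 °C. It rose from 2.18 to 55.5 FPKM, a 25.5-fold difference and a log2 change in the authors' deposited table of 4.67. A second, 427-base COX2 transcript rose from 0.225 to 4.92 FPKM, or 21.9-fold. COX1, the catalytic subunit, rose from 0.205 to 6.74 FPKM (log2 4.99 and adjusted p 1.45e-58 in the authors' deposited table), with 2 further transcripts reaching 1.63 and 0.458 FPKM at 43 °C.

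Both matched subunits of complex V, the ATP synthase, rose, though by different amounts. ATP1, the alpha subunit of the catalytic head, rose from 0.16 to 10.7 FPKM, or 67.1-fold, and from 0.153 to 8.83 FPKM in its second transcript. ORFB, the ATP8 subunit of the membrane part, rose 6.68-fold, from 0.745 to 4.98 FPKM. The difference between these ratios was not tested, and ORFB was measured on a 964-base transcript against 3571 bases for the main ATP1 transcript. Over complexes I, III, IV and V together, 22 of 23 transcripts rose, and the authors' deposited table gave a median log2 change of 5.72.

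**Figure D2:**
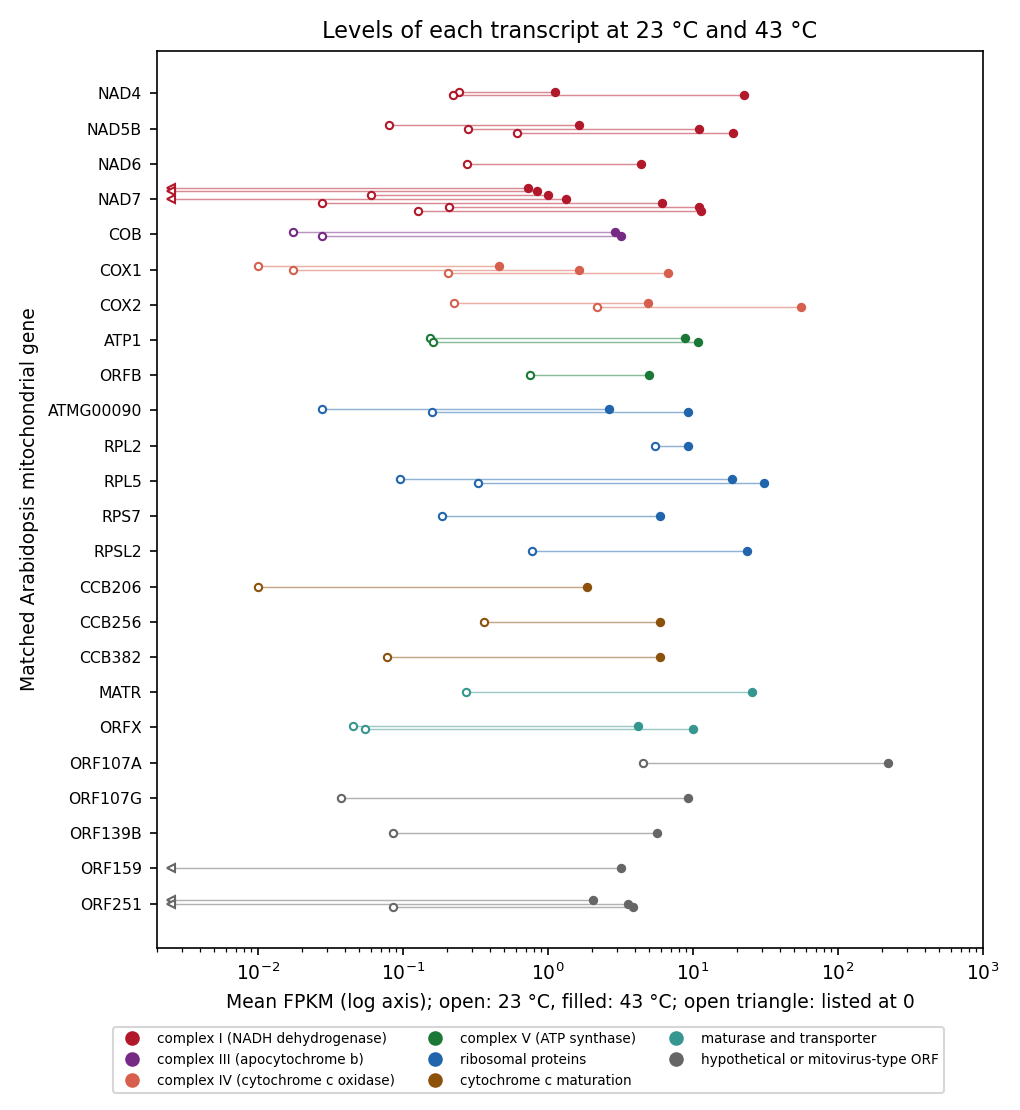
Mean FPKM at 23 °C (open) and 43 °C (filled) on a log axis for each transcript, grouped by matched mitochondrial gene and coloured by class, with triangles for values listed at 0. Lines run to the right for every transcript shown, with RPL2 the shortest and ORF107A ending at the highest level, 220.8 FPKM.

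The ribosomal protein genes held both large rises and the smallest rise of the named loci. RPL5, of the large ribosomal subunit, rose from 0.33 to 31.0 FPKM and, in a second variant of the same component, from 0.095 to 18.6 FPKM. RPSL2, of the small subunit, rose 30.1-fold, from 0.78 to 23.4 FPKM, and RPS7, also of the small subunit, rose 32.1-fold, from 0.185 to 5.95 FPKM. ATMG00090, described as a structural constituent of the ribosome, rose from 0.158 to 9.18 FPKM and from 0.0275 to 2.65 FPKM in its 2 transcripts.

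RPL2, of the large subunit, stood apart from the other named loci at 23 °C and in its ratio, while its level at 43 °C lay among theirs. It had the highest level of any named protein at 23 °C, 5.48 FPKM, and reached 9.16 FPKM at 43 °C, a 1.67-fold rise with a log2 change of 0.73 and an adjusted p of 0.00325 in the authors' deposited table. Its 1 transcript held 39.9% of the summed FPKM of all named proteins at 23 °C. The ratio of those sums was 25.1 with RPL2 and 40.6 without it.

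Cytochrome c maturation factors, which export and attach haem to c-type cytochromes, rose in all 3 matched genes of 5. CCB206, a membrane component of the haem-handling transporter, rose from 0.01 to 1.85 FPKM. CCB382, part of the haem ligation machinery, rose from 0.0775 to 5.91 FPKM, and CCB256, a haem-binding factor, from 0.36 to 5.87 FPKM. The ratios were 185, 76.2 and 16.3, in that order, and all rest on denominators under 1 FPKM. CCB206 was among 11 of the 36 named transcripts that lay under 0.05 FPKM at 23 °C. There, rounding of single values to 0.01 can move a mean by up to 0.005, which matters most for such ratios. CCB382 and CCB256 lay above 0.05 FPKM.

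MATR, the maturase that helps splice mitochondrial introns, and ORFX, a membrane protein of the twin-arginine transporter type, complete the named loci. MATR rose from 0.27 to 25.3 FPKM, or 93.8-fold. ORFX rose from 0.055 to 9.94 FPKM and from 0.045 to 4.15 FPKM in its 2 transcripts, a 141-fold difference of their sums.

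The ORFs without an assigned function did not move as a single group. Of 15 transcripts from 6 such loci, 9 rose, 1 fell and 5 did not pass. These were 60% higher and 6.67% lower, beside 20.7% and 17.8% of all transcripts. A division of the 15 by their descriptions, made after the values had been seen, separated them. All 4 transcripts described only as hypothetical proteins rose. ORF107A was the most abundant mitochondrial match of all, rising from 4.53 to 220.8 FPKM, a 48.8-fold difference (log2 5.59 and adjusted p 1.43e-162 in the authors' deposited table). ORF107G rose from 0.0375 to 9.19 FPKM and ORF139B from 0.085 to 5.68 FPKM, while ORF159 was listed at 0 at 23 °C and rose to 3.17 FPKM. These 4 matched less closely than the named proteins, whose E values were at most 1.3e-59. Their E values were 4e-36 for ORF107A, 9.5e-23 for ORF139B, 5.4e-17 for ORF159 and 4.8e-09 for ORF107G.

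ORF251, described as an RNA-dependent RNA polymerase of the mitovirus type (mitoviruses being RNA viruses that replicate in mitochondria), rose in all 3 of its transcripts. They stood at 0.085, 0 and 0 FPKM at 23 °C and at 3.87, 3.57 and 2.06 FPKM at 43 °C. ORF120, described as ribonuclease H-like, did not share this direction: of 8 transcripts 2 rose, 1 fell and 5 did not pass. These were 25% higher and 12.5% lower, near the 20.7% and 17.8% of all transcripts. The summed FPKM of the 8 was 10.9 at 23 °C and 10.2 at 43 °C. The ORF120 transcript that fell went from 6.98 to 0.81 FPKM, with a log2 change in the authors' deposited table of -3.12.

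Most mitochondrial matches were to retroelement-like ORFs, whose descriptions name gag, pol, integrase, reverse transcriptase or DNA/RNA polymerase domains. These were 109 transcripts from 8 loci, 69 of them from ORF158 alone. Of the 109, 32 rose, 5 fell and 72 did not pass, so 29.4% were higher and 4.59% lower, beside 20.7% and 17.8% of all transcripts. Their median log2 change in the authors' deposited table was 0.72, and their summed FPKM was 1.38-fold higher at 43 °C.

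Retroelement-like transcripts matched less closely: 28 of the 109 had an E value of at most 1e-30, whereas all 36 named-protein transcripts did. Low abundance was common among them, and 73 of the 109 had a mean under 1 FPKM. Among these 73, 24.7% rose and 2.74% fell, beside 16.8% and 8.13% of all 17558 transcripts under 1 FPKM. Among the 9 named-protein transcripts at this abundance, 8 rose, and the authors' deposited table gave a median log2 change of 6.60.

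Transcripts matching the same retroelement-like locus moved in both directions. The ORF158 match with the highest level at 43 °C rose from 16.7 to 25.8 FPKM, while the one with the highest level at 23 °C fell from 19.5 to 9.68 FPKM. A further ORF158 transcript rose 168-fold, from 0.0425 to 7.13 FPKM, and others fell from 5.22 to 0.74 and from 5.595 to 1.21 FPKM. ORF158 therefore has no single level, being a label shared by many assembled sequences. In the most abundant ORF119 match the values were 8.17 and 9.62 FPKM, which did not pass, and an ORF102 match fell from 1.10 to 0.33 FPKM.

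**Figure D3:**
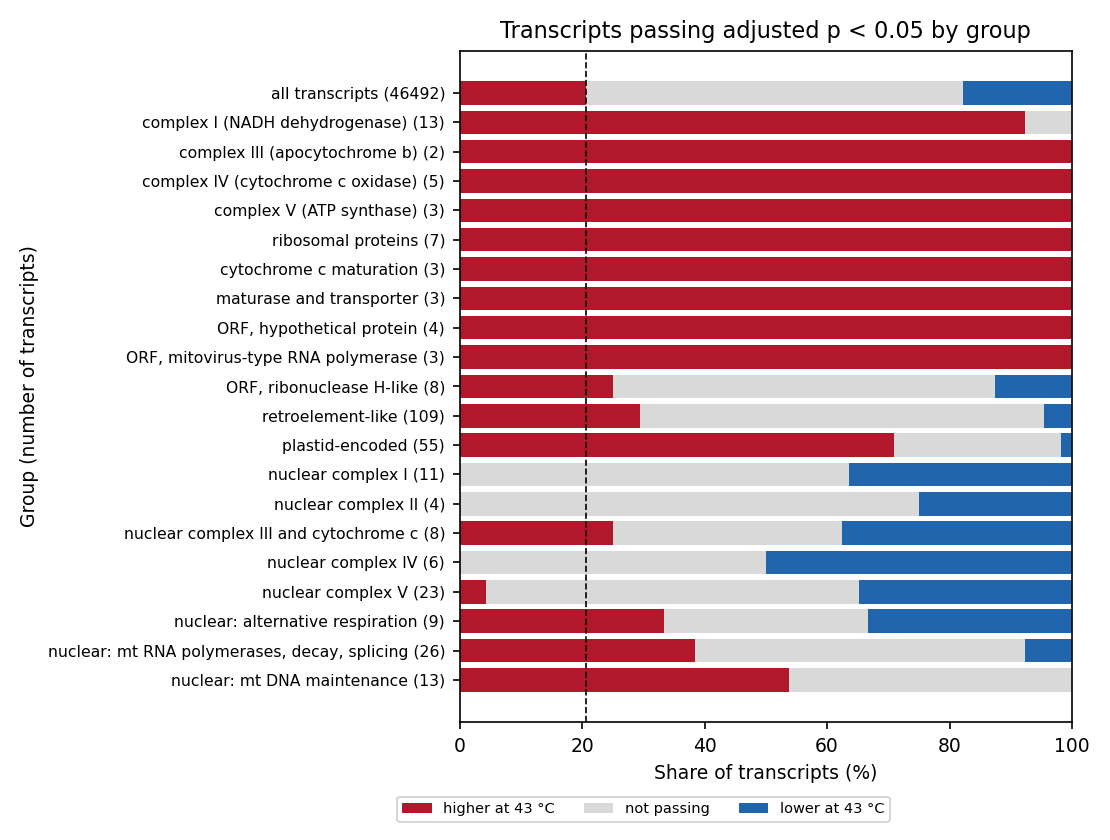
Percentages of transcripts higher (red), not passing (grey) and lower (blue) at 43 °C by the authors' adjusted p, for all transcripts, each class of mitochondrial match, plastid-encoded matches and lists of nuclear genes, with a dashed line at the 20.7% of all transcripts that were higher. Named respiratory, ribosomal and assembly classes are almost wholly higher, and the retroelement-like class is 29.4% higher and 4.59% lower.

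Counted over all 160 transcripts, the mitochondrial matches gave 76 higher, 6 lower and 78 not passing. These were 47.5% higher and 3.75% lower, beside 20.7% and 17.8% of all transcripts. The authors' deposited table gave the 160 a median log2 change of 1.47. By class, 35 of 36 named-protein transcripts, 9 of 15 from unnamed ORFs and 32 of 109 retroelement-like transcripts were higher. Taken by the most abundant transcript of each locus, 27 of 33 loci were higher, 1 was lower and 5 did not pass, and all 19 named protein loci were among the 27.

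Named-protein transcripts rose in every length class that held any. The single transcript of 300 to under 500 bases rose by 4.29 on the log2 scale of the authors' deposited table, and the 2 of 500 to under 1000 bases had a median of 3.27. Of the 33 that were at least 1000 bases long, 32 rose, with a median of 6.33 in the authors' deposited table. Within these, the 3 of 1000 to under 2000 bases, including RPL2, had a median of 3.96, the 12 of 2000 to under 5000 bases 6.41 and the 18 of at least 5000 bases 6.52.

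Named transcripts under 2000 bases had lower medians, but there were only 6 of them. Across the 36 transcripts, length and log2 change had a Pearson r of 0.34 and a Spearman rho of 0.32, without RPL2 both were 0.26, and over the 33 transcripts not listed at 0 they were 0.47 and 0.45. This is a description across transcripts that share libraries, loci and in part assembled components. The FPKM at 23 °C, from which the log2 change is itself derived, had a rho of -0.73 with it, whereas length had a rho of 0.10 with the FPKM at 43 °C.

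Over all mitochondrial matches, the share that rose did not change steadily with length. All 4 matches of 300 to under 500 bases rose, as did 4 of 11 at 500 to under 1000 bases and 68 of 145 at 1000 bases or more, where another 6 fell. At 5000 bases or more, 23 of 36 rose, and 18 of those 36 were named proteins. Of the retroelement-like matches, both of 300 to under 500 bases rose, none of the 5 of 500 to under 1000 bases did, and 30 of 102 of 1000 bases or more did. For these 102, the authors' deposited table gave a median log2 change of 0.69. Over all transcripts the share that rose went from 16.5% at 300 to under 500 bases to 21.6% at 1000 bases or more, and no mitochondrial match was shorter than 300 bases.

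**Figure D4:**
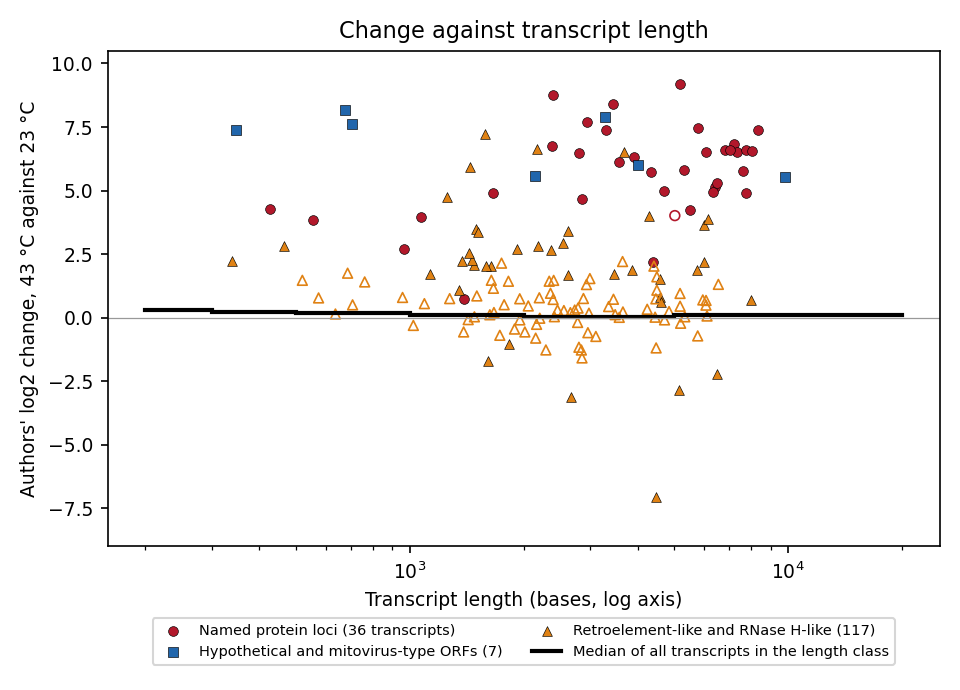
The authors' log2 change at 43 °C against transcript length in bases (log axis) for mitochondrial matches, filled where the authors' adjusted p passed and open where it did not, with the median of all transcripts in each length class as a black line. Named proteins lie above the line from 427 bases to 8326 bases, most of them far above it and RPL2, at 1391 bases and 0.73, close to it. Retroelement-like matches lie on both sides of the line.

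Assembly ties several of these transcripts together. Of the 43 named, hypothetical and mitovirus-type matches, 29 came from 18 assembled components, and 3 components held 14 of them: NAD7 with 7, COB, NAD4 and ATP1 together with 5, and RPL5 with 2. The same 18 components held 22 other transcripts, of which 13 rose, 4 fell and 5 did not pass. Over all transcripts, 20.7% rose and 17.8% fell. In the RPL5 component, a transcript matching AT2G07706, an unknown protein, rose from 73.2 to 1191 FPKM. In the NAD7 component, a transcript matching AT1G77420 stood at 27.6 and 27.9 FPKM and did not pass, and in the COX2 component a match to AT3G49725 fell from 12.3 to 8.82 FPKM. The ORF139B component also held matches to the plastid gene YCF2, which rose from 0.02 to 4.21 and from 0.185 to 3.05 FPKM, and to AT2G38120, which fell from 27.2 to 8.25 FPKM.

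Arabidopsis carries a copy of much of its mitochondrial genome in nuclear chromosome 2, so matches to loci from AT2G07660 to AT2G07840 were also examined. Of 17 transcripts in this range, 7 rose, or 41.2%, and none fell, beside 20.7% and 17.8% of all transcripts. Their median log2 change in the authors' deposited table was 1.18. Outside the nuclear genes ABCC13 and MCM5, 7 of 8 transcripts rose and 1 did not pass. The highest level in the range belonged to the AT2G07706 match of the RPL5 component, at 73.2 and 1191 FPKM. Its E value was 3.6e-07. AT2G07689, described as a complex I protein, rose from 0.413 to 39.9 FPKM, or 96.8-fold. AT2G07751, described as chain 3 of the same complex, stood at 2.70 and 2.32 FPKM and did not pass.

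The most similar other set, plastid-encoded matches, also rose. Its median lay below that of the named mitochondrial proteins but above that of all mitochondrial matches. Of 55 transcripts from 32 plastid loci, 39 rose, 1 fell and 15 did not pass. These were 70.9% higher and 1.82% lower, beside 20.7% and 17.8% of all transcripts. The authors' deposited table gave the plastid matches a median log2 change of 3.10. It was 5.97 for the named mitochondrial proteins and 1.47 for all 160 mitochondrial matches. Differences between these medians were not tested. The length-weighted share of the plastid matches went from 0.0278% to 0.208% of the total. The named mitochondrial share, at 0.00379%, was lower at 23 °C and, at 0.180%, close to it at 43 °C. PSBA, the D1 protein of photosystem II, rose from 3.77 to 61.8 FPKM.

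Nuclear genes for the respiratory complexes fell more often than they rose at the deposited scale, but not at equal totals. Of 52 transcripts of listed nuclear subunits of complexes I to V, 3 rose, 19 fell and 30 did not pass. Over all transcripts 20.7% rose and 17.8% fell. In the authors' deposited table the median log2 change of the 52 was -0.19, which turned to 0.06 with 11 higher and 7 lower when both temperatures were scaled to equal totals, where 27.9% of all transcripts were higher and 12.9% lower. In complex I, AT5G11770, the 20 kDa subunit, stood at 95.8 and 95.1 FPKM and did not pass, but was called higher at equal totals. CI51, the NADH-binding subunit, fell from 71.5 to 63.1 FPKM, a fall that was no longer called and changed sign at equal totals. In complex III, AT5G25450, described as a 14 kDa subunit, rose from 84.4 to 111.8 FPKM under both scalings. In complex IV, AT3G15640 fell from 76.4 to 47.8 FPKM under both scalings. In complex V, AT5G08680, of the ATP synthase alpha/beta family, fell from 199 to 153.5 FPKM, which was not called at equal totals.

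Alternative respiratory enzymes, which bypass proton-pumping steps, moved in both directions. Of their 9 transcripts 3 were higher and 3 lower, beside the same 20.7% and 17.8% of all transcripts. At equal totals 4 were higher and 3 lower, against 27.9% and 12.9%. AOX1A, the alternative oxidase, fell from 66.8 to 29.5 FPKM and NDA2, an internal NAD(P)H dehydrogenase, from 34.8 to 12.6 FPKM, whereas NDB2, an external one, rose from 7.36 to 22.9 FPKM. NDA1, another internal enzyme, was listed at 0 at 23 °C and rose to 0.968 FPKM. Among listed genes for mitochondrial RNA polymerases, RNA decay and splicing, 10 of 26 transcripts rose and 2 fell, against 20.7% and 17.8% of all transcripts, and at equal totals 11 were higher and 2 lower, against 27.9% and 12.9%. PMH2, an RNA helicase, rose from 24.8 to 70.5 FPKM and AT5G15700, of the DNA/RNA polymerase family, from 9.38 to 18.0 FPKM, while RNR1, an exoribonuclease, fell from 12.4 to 5.78 FPKM. AT5G14580, a polyribonucleotide nucleotidyltransferase of the kind that degrades RNA, stood at 6.79 and 5.76 FPKM and did not pass.

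Genes for mitochondrial DNA maintenance had 7 of 13 transcripts higher and none lower, against 20.7% and 17.8% of all transcripts. At equal totals 9 were higher and none lower, against 27.9% and 12.9%. POLGAMMA2, an organellar DNA polymerase, rose from 14.8 to 21.2 FPKM, and OSB1, a single-stranded DNA-binding protein, from 10.6 to 16.1 FPKM. WHY2, a mitochondrial DNA-binding protein, stood at 32.2 and 30.1 FPKM and did not pass.

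The samples carried leaf markers at both temperatures, at different levels. Of 10 transcripts of 3 photosynthesis genes, out of 6 listed as mesophyll markers, 8 fell, or 5 at equal totals. Their summed FPKM at 43 °C was 0.493 of that at 23 °C. Rubisco small-subunit genes are among the 3, so in a C4 leaf this set does not mark mesophyll alone. CAB1, a chlorophyll-binding protein of the light-harvesting antenna, fell from 5298 to 824 FPKM under both scalings, and RBCS1A, the small subunit of Rubisco, from 3882 to 3154 FPKM, which was not called at equal totals. Of 12 transcripts of genes active in dividing cells, 10 rose, and the sum over all 12 went from 23.2 to 60.2 FPKM. Among phloem markers 2 of 4 transcripts fell, and of 2 epidermal marker transcripts neither passed. Over all transcripts, 20.7% rose and 17.8% fell, and at equal totals 27.9% were higher and 12.9% lower. The part of these markers in the rise of mitochondrial transcripts was not tested.

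Neither scaling tried could reverse a named-protein change, since each shifts every log2 change by less than the smallest of them, 0.73. Only the calls could differ. Length-weighted totals were 1084420 at 23 °C and 909555 at 43 °C, and setting them equal adds 0.25 to every log2 change. Centring on the median takes 0.10 from every log2 change, and 18.3% of all transcripts were then higher and 20.2% lower. With equal totals and with centring, 36 and 35 of the 36 named-protein transcripts were higher.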

How the data were processed

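Total RNA from 8 leaf libraries was sequenced after standard Illumina library preparation, per the labels' protocols. CASAVA 1.8.2 and Bowtie2 are named in the submitters' processing notes, with no role given. The deposited table gives FPKM per temperature, the authors' log2 change (43 °C against 23 °C), a p-value, an adjusted p-value and the best BLASTx match among TAIR10 Arabidopsis proteins with its E value, per the file headers. All deposited FPKM were multiples of 0.0025, as means of 4 values with 2 decimals are, and were taken as the authors' means. The sources used here do not name the assembler, the counting or the test behind the authors' p-value, nor what the replicates shared, so the p-values may measure technical spread only. The adjusted p equalled a Benjamini-Hochberg adjustment over all 46492 transcripts to within 3.2e-07.

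From the deposited table, transcripts whose match identifier starts with ATMG were selected, classed by fixed lists of loci and descriptions, and counted by the authors' adjusted p at 0.05. Tests on single libraries were planned, but the table held means, so none was run. Shares of the total weight FPKM by transcript length. Calls under equal totals and centring were approximated from the standard error implied by the authors' p. Every matched named locus is reported by its most abundant transcript, retroelement-like and unnamed ORFs by the 10 highest means and the 5 highest and 5 lowest passing changes with at least 1 FPKM at either temperature, and nuclear lists by up to 2 higher, 2 lower and 2 not passing, of which some are named. The members and lists were chosen with earlier results of these data known. The Benjamini-Hochberg adjustment and the implied standard error, but not the counting by class, were tested on simulated data. Python 3.11.15, pandas 2.3.3, numpy 2.4.6 and scipy 1.17.1 were used. Alternatives were thresholds, minimum levels, pseudocounts, scalings, stricter matches and other units of counting.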

Additional observations from a re-analysis of the deposited data

How the results depend on the processing

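The 35 named-protein calls held at an adjusted p threshold of 0.01 and under centring, and 36 were called at equal totals. Taken by the most abundant transcript of each of the 33 mitochondrial loci, equal totals and centring removed no call and added 1 (ORF119, 0.48 at equal totals). Pseudocounts and sums per locus give a log2 value without a p, so no call could be lost under them. Counts over all mitochondrial matches, 76 higher and 6 lower, fell to 49 higher with a minimum mean of 1 FPKM, to 14 and 1 with a minimum of 5, to 27 and 1 by the most abundant transcript of each locus, to 43 and 1 with E values of at most 1e-30, to 44 and 1 without retroelement-like loci, and to 35 and 0 with named proteins alone, as fewer transcripts were counted. With 1 transcript per locus, complex I gave 4 higher, complex III 1, complex IV 2, retroelement-like loci 3 higher and 0 lower, and unnamed ORFs 5. With the minimum of 1 FPKM, complex I gave 7 higher, complex IV 3, retroelement-like loci 14 higher and 3 lower, and the class of 1000 bases or more 41. Without retroelement-like loci, that class gave 38 higher and the class of 300 to under 500 bases 2. Summed over each locus, the log2 change became 1.06 for ORF154, 0.15 for ORF107E and -0.24 for ORF102. Each is opposite in sign to that of the most abundant transcript. Each sum also holds transcripts of the locus whose values went the other way from it. Pseudocounts of 0.1, 1 and 5 lowered the named-protein median log2 change to 4.64, 2.44 and 1.05. At equal totals, an alternative chosen after seeing the data like that of named proteins alone, the nuclear lists gave 35 higher and 12 lower, against 23 and 24, and complexes I to V 11 and 7 with a median of 0.065. No paired analysis was possible because the table holds 1 mean per temperature; the planned replicate block, limma fit and leaving out of each replicate were not run for the same reason. Read depth is unknown, so precision at very low FPKM rests on the authors' p-values.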
